A study of Mus musculus with 22 samples.

Results

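The transcript of Aire, the autoimmune regulator, was followed over all genotype and treatment groups of a mouse array study. Every probe that the platform annotation names Aire was taken, which gave 1 probe of 24922 and so 1 gene of the 19752 measured (probe 10370397, Entrez identifier 11634). RNA came from medullary epithelial cells (MECs) of the thymus, sorted per the labels as live cells without CD45, low in Ly51 and high in MHC class II. The mice were C57Bl/6, either wild type (WT, Aire+/+) or Aire knockout (KO, Aire-/-), and had been treated with DMSO as vehicle, Etopo, Topo, or both drugs (EtopoTopo). The 22 arrays made 8 groups, of which KO Etopo and KO EtopoTopo held 2 arrays and the others 3. The labels give an age of 6 weeks for 15 arrays and of 4 weeks for 7, namely the 5 EtopoTopo arrays together with replicate 3 of WT DMSO and of WT Etopo, so age was not balanced over treatments. The arrays labelled male were 3, namely WT DMSO 1, WT Etopo 2 and WT Topo 2. All are WT, so this label was not balanced over genotypes. Etopo and Topo commonly stand for etoposide, which traps type II topoisomerases on DNA, and topotecan, which traps topoisomerase I, but the labels give only the short names. Doses, times and the design of the knockout allele were not used here. Since pooling of mice is not stated in the labels, the p-values refer to the variation among arrays, which may be technical in part.

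Aire is a transcriptional regulator made mainly by mature MECs. It lets these cells transcribe many genes that are otherwise restricted to peripheral tissues, so that developing T cells meet the products inside the thymus. Transcription of Aire itself is known to need signals through RANK and CD40, members of the tumour necrosis factor receptor family, which reach the gene by way of NF-kB. The probe reports one value averaged over the transcript and does not say which exons were present, so a KO array with a high value is no test of the deletion. A higher or lower value in sorted bulk RNA can also not be told apart from a different share of Aire-expressing cells in the sort.

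In RefSeq (GRCm38.p6) Aire lies on the minus strand of chromosome 10, from 78030022 to 78043610. Its closest neighbours are Dnmt3l, Icosl and Pfkl. The 250 bases before the annotated start of Aire and of each of these genes are shown because the 4 transcripts differed between genotypes and with Topo in the same directions, as described further on. Windows were taken from the RefSeq promoter table, where Aire, Pfkl and Icosl have 1 start each and Dnmt3l has 3. The first of these starts is given here. Capitals mark any match, on either strand, to 5 patterns: a loose NF-kB site (GGG, any 5 bases, then CC), a STAT site (TTC, any 3 bases, then GAA), the CCAAT box, the TATA box as TATAAA, and the GC box as GGGCGG. No printed matches overlap. The windows are chr10:78043611-78043860 (minus strand) for Aire, chr10:78042037-78042286 (plus strand) for Dnmt3l, chr10:78069118-78069367 (plus strand) for Icosl and chr10:78009808-78010057 (minus strand) for Pfkl.
Aire: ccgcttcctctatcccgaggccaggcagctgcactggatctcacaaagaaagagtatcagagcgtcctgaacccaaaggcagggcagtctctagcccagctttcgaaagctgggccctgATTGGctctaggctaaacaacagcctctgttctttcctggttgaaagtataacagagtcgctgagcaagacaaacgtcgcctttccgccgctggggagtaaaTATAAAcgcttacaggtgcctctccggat
Dnmt3l: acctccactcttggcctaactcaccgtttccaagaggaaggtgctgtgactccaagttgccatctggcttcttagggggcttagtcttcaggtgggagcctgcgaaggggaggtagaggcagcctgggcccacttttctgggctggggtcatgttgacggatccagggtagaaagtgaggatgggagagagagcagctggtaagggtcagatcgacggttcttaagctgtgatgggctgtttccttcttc
Icosl: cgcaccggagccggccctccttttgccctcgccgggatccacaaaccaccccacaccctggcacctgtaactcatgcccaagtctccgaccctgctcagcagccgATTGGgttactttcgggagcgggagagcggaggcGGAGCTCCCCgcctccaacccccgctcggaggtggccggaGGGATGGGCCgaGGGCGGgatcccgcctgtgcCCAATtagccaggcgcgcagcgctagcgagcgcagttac
Pfkl: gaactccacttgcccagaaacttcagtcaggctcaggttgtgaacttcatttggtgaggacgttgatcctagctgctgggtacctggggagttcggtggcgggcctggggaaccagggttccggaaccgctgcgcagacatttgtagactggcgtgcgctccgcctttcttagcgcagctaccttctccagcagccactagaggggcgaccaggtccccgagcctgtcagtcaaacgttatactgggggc
The Aire window held 1 CCAAT match, read on the opposite strand, that began 131 bases before the start, and 1 TATAAA match that began 29 bases before it. TATAAA occurred in 12.4% and CCAAT in 33.8% of the 32851 windows of the same length in the table. The Icosl window held 2 matches to the NF-kB pattern, 2 to CCAAT and 1 to the GC box, of which the first is found in 45.8% and the last in 32.7% of windows. None of the 5 patterns was found in the printed windows of Dnmt3l and Pfkl. The STAT pattern, present in 7.02% of windows, was in none of the 4. Of the Dnmt3l windows not printed, that of the second start held 1 match to the STAT pattern and 2 to the GC box, and that of the third held none of the 5 patterns. Trappc10, a more distant neighbour, differed in the same directions but is not printed. Its window held 4 matches to the NF-kB pattern, 4 to the GC box and 0 to the other patterns. A match is a run of letters in a window and was not tested as a binding site. The Dnmt3l window lies inside the annotated span of Aire.

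By group mean, Aire was brightest in KO without Topo and dimmest in WT with Topo. On the log2 scale of the deposited intensities, WT DMSO arrays 1 to 3 read 12.26, 12.24 and 12.44, and KO DMSO arrays 1 to 3 read 12.89, 12.88 and 12.96. WT Etopo arrays read 12.30, 12.22 and 12.04, and both KO Etopo arrays were higher, at 12.94 and 12.83. Under these 2 treatments, all KO arrays lay above all WT arrays. WT Topo arrays read 11.71, 11.63 and 12.02 and KO Topo arrays 11.78, 12.79 and 12.54, with 1 KO array inside the WT range. WT EtopoTopo arrays read 12.03, 11.27 and 11.75 and KO EtopoTopo arrays 11.43 and 12.61, again with 1 KO array inside the WT range. As intensities, the group means ran from 3364 in WT EtopoTopo to 7698 in KO DMSO.

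**Figure D1:**
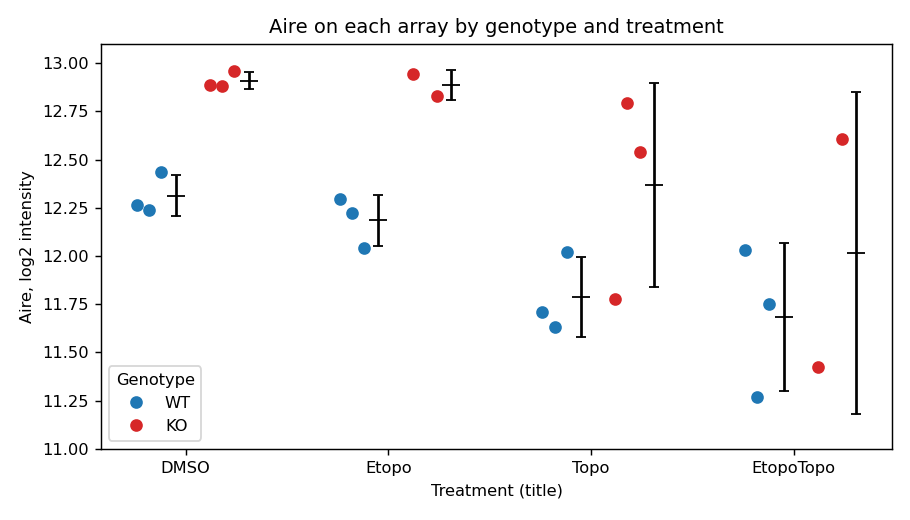
Log2 intensity of the Aire probe (vertical axis) on each of the 22 arrays by treatment (horizontal axis), WT in blue and KO in red, with black bars for the group mean and SD beside the points. KO arrays lie above WT arrays under DMSO and Etopo, while KO Topo 1 at 11.78 and KO EtopoTopo 1 at 11.43 fall among the WT values.

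Ordered by mean, the groups were KO DMSO (12.91 ± 0.04, SD, n = 3), KO Etopo (12.89 ± 0.08, n = 2), KO Topo (12.37 ± 0.53, n = 3), WT DMSO (12.31 ± 0.11, n = 3), WT Etopo (12.19 ± 0.13, n = 3), KO EtopoTopo (12.02 ± 0.84, n = 2), WT Topo (11.79 ± 0.21, n = 3) and WT EtopoTopo (11.68 ± 0.38, n = 3). Each group overlapped the next in this order, with the exception of KO Etopo and KO Topo, whose arrays did not overlap. The spread between replicates was therefore much wider in the KO groups with Topo than in the other KO groups. KO Topo 1 and KO EtopoTopo 1 lay 0.59 below their group means.

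Aire was higher in KO than in WT MECs by 0.55 ± 0.13 (SE) on the log2 scale, averaged over the 4 treatments, a 1.47-fold difference (95% interval 0.28 to 0.83, adjusted p = 0.00185 with limma and Benjamini-Hochberg adjustment over all genes). WT arrays read 11.27 to 12.44 with a median of 12.03 (n = 12), and KO arrays read 11.43 to 12.96 with a median of 12.81 (n = 10). A 2-sided exact permutation test that reassigned genotypes within each treatment gave p = 0.00213 over 40000 reassignments (0.00319 adjusted over the 3 averaged comparisons), with the KO mean above the WT mean in 4 of 4 treatments. The EtopoTopo difference changes sign without KO EtopoTopo 2 (-0.26) and is 0.92 without KO EtopoTopo 1. In this comparison 35.9% of all genes were called at an adjusted p under 0.05, 16.1% higher and 19.8% lower in KO. The Aire difference was thus one of many between the genotypes, at place 1897 by size among the 19752 genes.

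Within single treatments, the KO minus WT difference in Aire was 0.60 ± 0.25 under DMSO (adjusted p = 0.101, limma), 0.70 ± 0.28 under Etopo (0.114), 0.58 ± 0.25 under Topo (0.126) and 0.33 ± 0.28 under EtopoTopo (0.51). None passed the threshold, while 19.4%, 12.6%, 15% and 10.4% of all genes did in these comparisons. The 95% intervals were 0.08 to 1.11 under DMSO, 0.13 to 1.27 under Etopo, 0.07 to 1.10 under Topo and -0.24 to 0.91 under EtopoTopo. Fitted on the 6 DMSO arrays alone, where the spread is not shared with the Topo groups, the DMSO difference was called (adjusted p = 0.0074, limma), and after scale normalization it was 0.18 and not called (0.498). Among the 8 groups, the spread that enters the shared fit was widest in KO EtopoTopo and KO Topo.

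**Figure D2:**
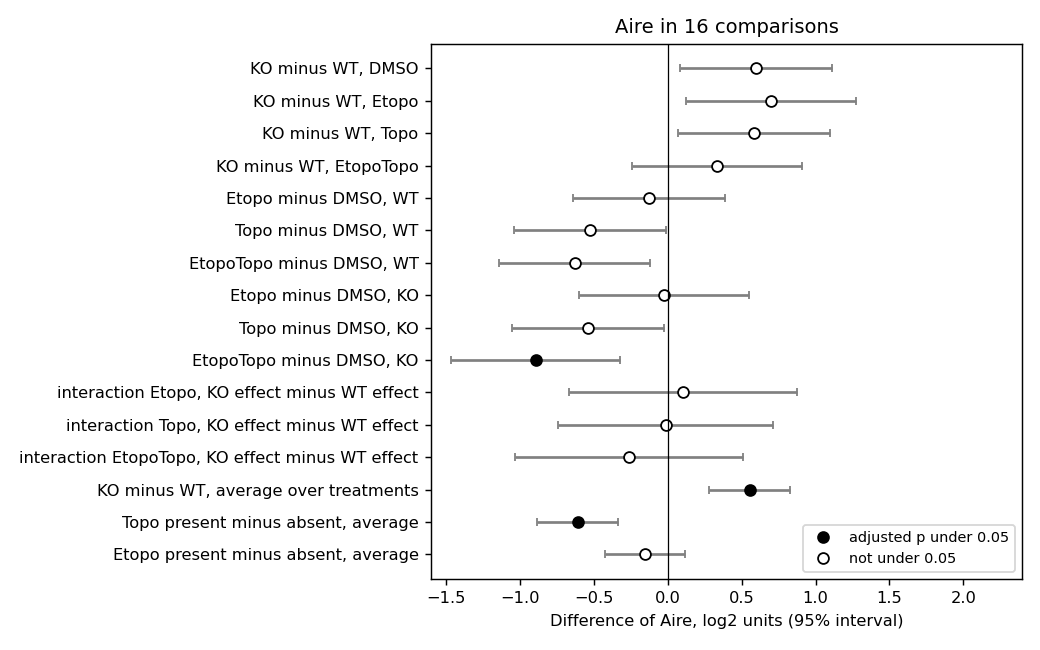
Difference in Aire (log2 units, horizontal axis) with its 95% interval from the limma fit in each of the 16 comparisons, with filled points where the adjusted p was under 0.05. Called are the averaged KO minus WT difference at 0.55, the averaged Topo difference at -0.61 and EtopoTopo minus DMSO in KO at -0.89.

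Topo was accompanied by less Aire transcript. Over both genotypes and with or without Etopo, the averaged difference was -0.61 ± 0.13 (95% interval -0.88 to -0.34, 1.53-fold lower, adjusted p = 0.00366 with limma). Arrays with Topo read 11.27 to 12.79 with a median of 11.78, and arrays without it 12.04 to 12.96 with a median of 12.44 (11 arrays each). The 2-sided exact permutation test within the 4 strata gave p = 4.17e-05 over 48000 reassignments, the smallest value they can give (0.000125 adjusted over the 3 averaged comparisons), with the Topo mean higher in 0 of 4 strata. Of all genes, 21.1% were called here, 11.7% lower and 9.36% higher, and Aire was at place 165 by size. The difference was -0.30 without the 4 arrays of narrowest range described below, -0.28 after scale normalization, and -0.54 and no longer called (adjusted p = 0.0564) when WT EtopoTopo 1 and 2, whose treatment label gives Etopo alone, were grouped by that label. With age in the fit it was -0.60 (adjusted p = 0.0355, limma). Age varied within a group only in WT DMSO and WT Etopo, so the age term rests on those groups. The part of age in the EtopoTopo groups was thus not tested.

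For single comparisons with DMSO, the fall in Aire passed the test only for EtopoTopo in KO, at -0.89 ± 0.28 (adjusted p = 0.0291 with limma, 22.8% of genes called). This value was -0.30 and not called without KO EtopoTopo 1, -1.48 without KO EtopoTopo 2, and 0.01 after scale normalization. It was also not called with age in the fit (-0.88, adjusted p = 0.235). All KO EtopoTopo arrays came from mice aged 4 weeks and all KO DMSO arrays from mice aged 6 weeks, so age and treatment cannot be told apart within KO. In WT the difference was -0.53 ± 0.25 for Topo (0.414) and -0.63 ± 0.25 for EtopoTopo (0.105), and for Topo in KO it was -0.54 ± 0.25 (0.393). These comparisons share the DMSO arrays of their genotype, and called 2.21%, 10.9% and 1.03% of genes. The Topo effect on Aire in KO minus that in WT was -0.01 (95% interval -0.74 to 0.71, adjusted p = 0.998, 0.0759% of genes called), and the corresponding EtopoTopo value was -0.26 (-1.03 to 0.51, 0.747, 2.46% called). These intervals are wide enough to hold differences as large as the effects themselves.

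Etopo alone left no called difference in Aire, and neither did the average that sets Etopo and EtopoTopo against DMSO and Topo. The averaged Etopo difference was -0.15 ± 0.13 (95% interval -0.42 to 0.12, adjusted p = 0.541 with limma, where 0.314% of genes were called, 0.0911% higher and 0.223% lower), and the 2-sided exact permutation p was 0.333. Arrays with Etopo read 11.27 to 12.94 (median 12.13, n = 10) and arrays without it 11.63 to 12.96 (median 12.35, n = 12). Against DMSO, Etopo alone gave -0.13 ± 0.25 in WT and -0.02 ± 0.28 in KO (both 0.999), where 0.00506% and 0% of genes were called, and 707 genes of the KO comparison had an unadjusted p under 0.05. The intervals reached from -0.64 to 0.39 in WT and from -0.60 to 0.55 in KO. The KO effect minus the WT effect was 0.10 (-0.67 to 0.87, 0.991), a comparison in which 0% of genes were called and 907 had an unadjusted p under 0.05.

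Other measures of the same arrays moved with Aire. The range between the 10th and 90th percentile of log2 values was narrowest on KO EtopoTopo 1 (3.89), WT EtopoTopo 2 (4.32), WT EtopoTopo 3 (4.33) and KO Topo 1 (4.42) and reached 5.01 on KO DMSO 3, and all 4 of the narrow arrays read below 11.80 for Aire. Over the 12 WT arrays Aire and this range had Pearson's r = 0.65 (permutation p = 0.0236) and Spearman's rho = 0.49 (p = 0.11), and over the 10 KO arrays r = 0.93 (p = 0.00247) and rho = 0.66 (p = 0.044). Adjusted over 8 such relations, the Pearson p-values were 0.0462 and 0.0198 and the Spearman p-values 0.146 and 0.0881. Without the 2 arrays farthest from the median range, r was 0.26 in WT and 0.35 in KO, so both relations rest on those arrays. The KO minus WT average was 0.69 without the 4 narrow arrays, no smaller than with them, while the Topo average was reduced from -0.61 to -0.30 and stayed called (adjusted p = 0.017 with limma).

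Markers of the sort and of other cells were set beside Aire. Enpep, which encodes Ly51, read 7.79 to 8.63 on WT and 6.97 to 7.74 on KO arrays, with no overlap, and was lower in KO by 0.97 on the log2 scale (a value of -0.97 ± 0.09, adjusted p = 7.64e-09). Epcam, an epithelial surface protein, read 10.64 to 10.92 in WT and 10.37 to 10.81 in KO (-0.18 ± 0.06, 0.0141). Ptprc, which encodes CD45, read 7.04 to 8.98 in WT and 7.21 to 10.04 in KO and was not called (0.24 ± 0.25, 0.513). The mean of 10 thymocyte genes was 8.32 on WT DMSO 1 and 8.71 on KO DMSO 1, and at most 7.56 on the others, and leaving out both arrays gave a KO minus WT Aire difference of 0.55.

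The mean of 14 genes of mature MECs, the cells that make Aire, was 11.12 to 11.60 in WT and 10.93 to 11.68 in KO. Of the 14, 5 were higher in KO (Ciita 0.44, Cd80 0.36, Cd86 0.83, Cd83 1.08 and Ctss 0.77) and 1 was lower (Ccl22, -1.23), with a median of 0.11 against 0.01 over all genes, of which 16.1% were higher and 19.8% lower. With Topo, 4 were lower (Ciita, Cd83, Fezf2 and Ctss) and 0 higher, with a median of -0.14 against 0.02 over all genes, of which 11.7% were lower and 9.36% higher. The list mean and Aire had r = 0.66 in WT (permutation p = 0.0197, adjusted 0.0462; rho = 0.69, p = 0.0158, adjusted 0.042) and r = 0.76 in KO (p = 0.0347, adjusted 0.0462; rho = 0.45, p = 0.192, adjusted 0.219), with 0.48 and 0.27 without the 2 arrays farthest from the median. Genes of tuft-like cells, another thymic epithelial type, moved with Topo as well: 7 of 8 were higher and 0 lower, against 9.36% and 11.7% of all genes, with a median of 0.62. In WT their mean was 9.19 to 9.44 with DMSO, 9.73 to 10.03 with Etopo, 10.02 to 10.27 with Topo and 10.34 to 10.50 with EtopoTopo. In KO it was 9.12 to 9.415 with DMSO, 9.33 to 9.68 with Etopo, 9.77 to 10.10 with Topo and 9.44 to 10.14 with EtopoTopo. The rise was thus not seen with Topo alone. The part of these markers in the Aire differences was not tested.

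Genes beside Aire were read in the same way, from 5 on each side. Toward lower coordinates these are Pfkl, Cfap410, Trpm2, Lrrc3 and Krtap10-10, and toward higher ones Dnmt3l, Icosl, Gatd3a, Pwp2 and Trappc10. In KO against WT, 4 of the 10 were higher and 0 lower, with a median of 0.16 on the log2 scale against 0.01 over all genes, where 16.1% of genes were higher and 19.8% lower. With Topo, the same 4 were lower and 0 higher, with a median of -0.13 against 0.02 over all genes, of which 11.7% were lower and 9.36% higher. With Etopo, 0 of 10 were called, against 0.314% of all genes. The 10 genes were not chosen on their values, but how many would be called by neighbourhood alone was not tested.

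Dnmt3l, a regulatory partner of DNA methyltransferases, had the largest genotype difference of the 10. WT arrays read 7.87 to 8.83 (median 8.15) and KO arrays 9.24 to 10.63 (median 10.36), so the genotypes did not overlap on any array. The difference was 1.95 ± 0.10 (adjusted p = 7.08e-13 with limma), and KO lay above WT within each of the 4 treatments. With Topo it was lower by 0.51 on the log2 scale (a difference of -0.51 ± 0.10, 0.00157). Dnmt3l runs on the plus strand from 78042287 to 78063622, opposite to Aire, and shares 1324 bases of its annotated span with Aire's. The positions of the probes were not used here, so whether either probe reads the shared stretch was not tested.

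Pfkl and Icosl stand to either side of this pair. Pfkl, which encodes the liver form of the glycolytic enzyme phosphofructokinase, lies 20214 bases from Aire. It read 8.21 to 9.28 in WT and 8.51 to 10.04 in KO, with a difference of 0.66 ± 0.11 (adjusted p = 3.36e-05), and -0.56 ± 0.11 with Topo (0.00159). Icosl, the ligand of the T-cell costimulator ICOS, starts 25757 bases away, and read 10.74 to 11.52 in WT and 11.33 to 12.28 in KO. Its difference was 0.72 ± 0.07 (8.62e-08), with all KO arrays above all WT arrays in 4 of 4 treatments. With Topo it was -0.49 ± 0.07 (0.000263), and -0.19 and not called (0.108) after scale normalization.

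Trappc10, a subunit of a vesicle-tethering complex, lies 141811 bases from Aire. It was higher in KO by 0.26 ± 0.09 (adjusted p = 0.024), a call lost without KO Etopo 2, without KO EtopoTopo 2 and without the 3 male-labelled arrays. With Topo it was -0.30 ± 0.09 (0.0215), a call lost in 8 of 33 alternative settings. The 6 other neighbours were not called in either comparison. Over the 22 arrays, Pearson's r with Aire was 0.93 for Trappc10, 0.91 for Pfkl, 0.90 for Icosl and 0.77 for Dnmt3l, against 0.64 for Gatd3a, 0.41 for Cfap410, 0.36 for Trpm2, 0.31 for Pwp2, -0.29 for Lrrc3 and -0.60 for Krtap10-10. All of these correlations share the arrays and their range differences.

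**Figure D3:**
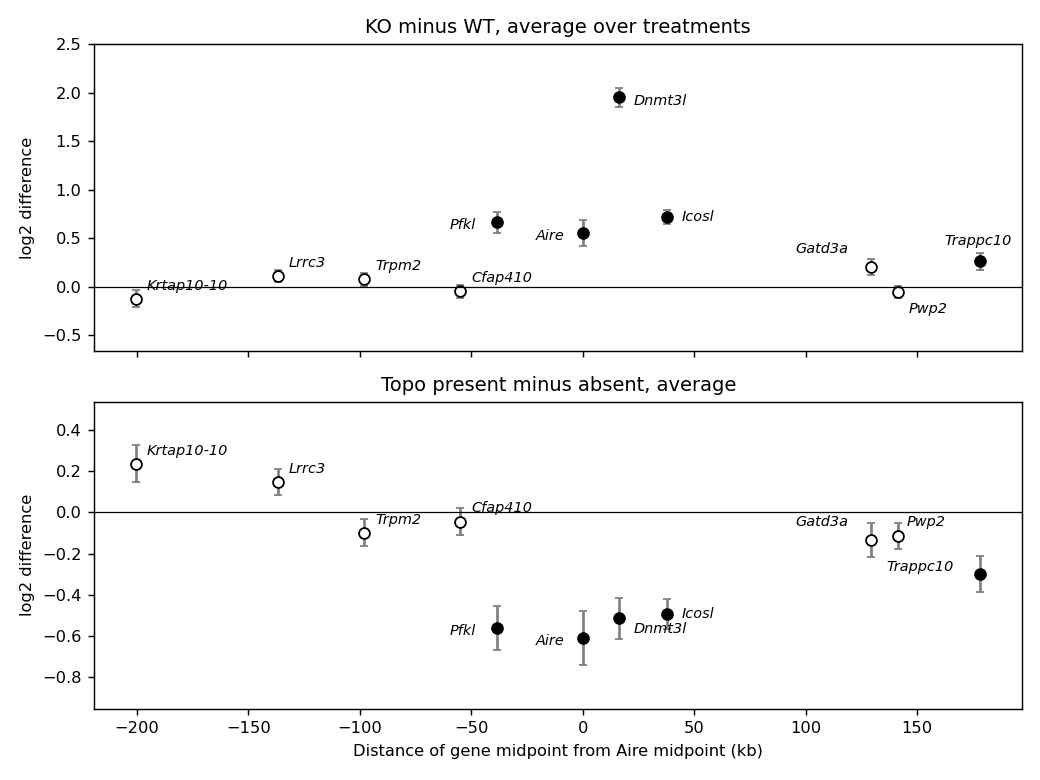
Log2 difference with its SE (vertical axis) for Aire and 5 genes on each side, by distance of gene midpoints from that of Aire in kb (horizontal axis), for KO minus WT (top) and for Topo present minus absent (bottom), with filled points where the adjusted p was under 0.05. Pfkl, Aire, Dnmt3l, Icosl and Trappc10 are above 0 in the upper panel and below 0 in the lower one.

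The signalling route that leads to Aire was described by 22 genes, of which 18 were measured. Traf3, Chuk, Nfkb1 and Tcf7 had no value under these symbols. In KO against WT, 10 of the 18 were higher and 1 lower, with a median of 0.25 against 0.01 over all genes, of which 16.1% were higher and 19.8% lower. Among receptors, Tnfrsf11a, which encodes RANK, was higher by 0.26 ± 0.07 (adjusted p = 0.0085), while Cd40 was not called (0.14 ± 0.06, 0.0954). Ltbr, the lymphotoxin beta receptor, was the one gene lower in KO, at -0.34 ± 0.06 (0.000192), and KO lay below WT in each of the 4 treatments.

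Downstream of these receptors, the adaptors Traf6 (0.47 ± 0.09) and Traf2 (0.27 ± 0.09), the kinases Map3k14, which encodes NIK (0.46 ± 0.10), and Ikbkb (0.24 ± 0.08), and the NF-kB subunit Relb (0.36 ± 0.11) were higher in KO. The inhibitor Nfkbia was higher as well (0.29 ± 0.08). Rela (0.12), Rel (0.24) and Nfkb2 (0.13) were not called. Traf2 lost its call in 5 and Ikbkb in 6 of 33 alternative settings, Relb without KO EtopoTopo 2, and Nfkbia after scale normalization. Of the factors known to act at Aire, Irf8 (0.62 ± 0.08), Tbx21 (0.61 ± 0.08) and Irf4 (0.53 ± 0.08) were higher, and for Irf8 and Irf4 the KO arrays lay above the WT arrays in 4 of 4 treatments. Ctcf (0.04) and Jmjd6 (0.06), which are on the same list, were not called.

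With Topo, 6 of the 18 were lower and 0 higher, with a median of -0.17 against 0.02 over all genes, of which 11.7% were lower and 9.36% higher. These were Cd40 (-0.51 ± 0.06, adjusted p = 5.79e-05), Traf6 (-0.43 ± 0.09, 0.00207), Nfkb2 (-0.42 ± 0.10, 0.00607), Relb (-0.39 ± 0.11, 0.0222), Irf4 (-0.37 ± 0.08, 0.00348) and Ctcf (-0.26 ± 0.08, 0.025). Tnfrsf11a read -0.19 ± 0.07 and was not called (0.0729). The count was 3 with age in the fit. Leaving out KO EtopoTopo 1, KO EtopoTopo 2 or KO Etopo 2 moved it, each time with 1 array left in the group. So did grouping WT EtopoTopo 1 and 2 as WT Etopo. Over all genes, calls moved widely too without KO EtopoTopo 2 or with that grouping. With Etopo, 0 of 18 were called, against 0.314% of all genes. That count also moved without KO EtopoTopo 2, as did calls over all genes.

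**Figure D4:**
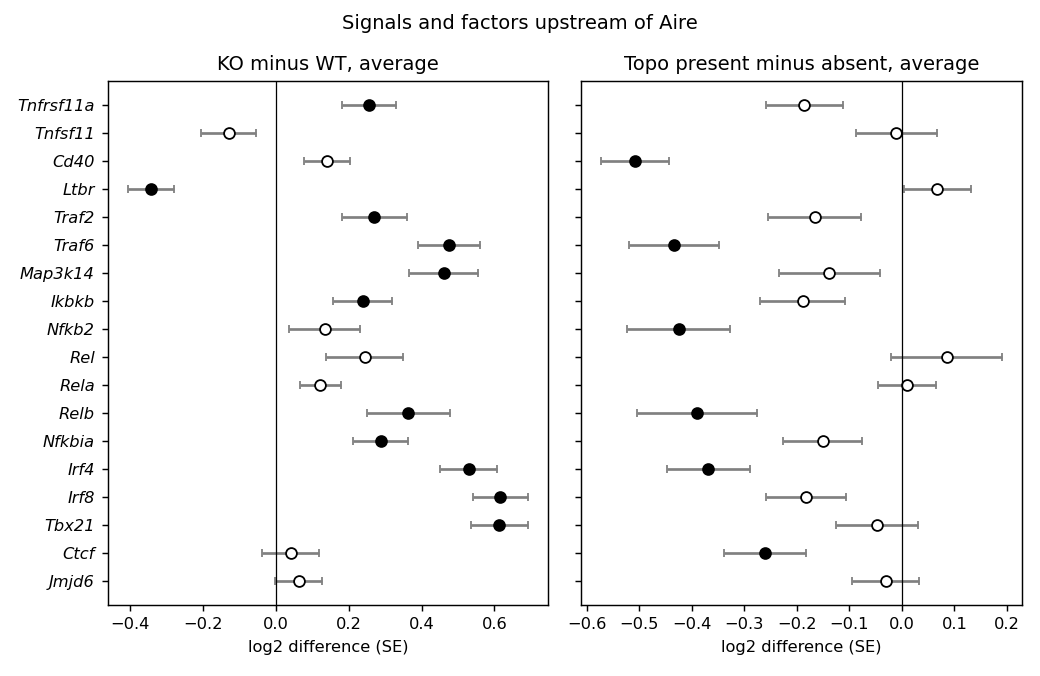
Log2 difference with its SE (horizontal axis) for the 18 measured genes of the route to Aire (vertical axis), for KO minus WT (left) and Topo present minus absent (right), with filled points where the adjusted p was under 0.05. On the left 10 filled points lie above 0 and Ltbr below it, and on the right all 6 filled points lie below 0.

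Relatives that share the SAND domain with Aire were measured for 5 of 6 symbols. Sp140 was higher in KO by 1.31 ± 0.09 (adjusted p = 1.8e-10) and Sp100 by 0.74 ± 0.09 (7e-07), both nuclear body proteins, and neither was called with Topo (-0.05 and 0.11). Gmeb1 was lower with Topo (-0.30 ± 0.08, 0.0149), and Deaf1 and Gmeb2 were not called in either comparison. Proteins reported to work with Aire gave 4 higher and 4 lower in KO among 21 measured, with a median of 0.02, shares near those over all genes (16.1% higher and 19.8% lower). The higher ones were Msn (0.68), Sirt1, a deacetylase (0.59), Crebbp, an acetyltransferase (0.45), and Ccnt1, a subunit of the elongation factor P-TEFb (0.26). The lower ones were Top2a, a type II topoisomerase (-0.58), Xrcc5 (-0.41), Hipk2 (-0.34) and Chd4 (-0.25).

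With Topo, 5 of the 21 were lower and 0 higher, against 11.7% and 9.36% of all genes. These were Top2a (-0.88 ± 0.14, adjusted p = 0.000433), Msn (-0.58 ± 0.11, 0.00137), Xrcc5 (-0.42 ± 0.11, 0.0123), Sirt1 (-0.36 ± 0.07, 0.00144) and Parp1 (-0.32 ± 0.07, 0.006). Top1, which encodes the enzyme that topotecan traps, read 0.01 ± 0.08 with Topo (0.908), and Top2b, the other type II enzyme, read -0.02 ± 0.11 (0.884). With Etopo, 0 of the 21 were called, against 0.314% of all genes, and Top2a read -0.58 ± 0.14 (0.0554).

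The transcripts most like Aire were ranked by Pearson's r over the 22 arrays. The 10 highest were Stat5a (0.97), Arhgap1 (0.96), Pla1a (0.95), Stoml1 (0.95), Hdc (0.94), Apba1 (0.94), Tnfrsf11a (0.94), Cnp (0.94), Ctnnbl1 (0.94) and Ache (0.94). Of 19751 other genes, 87 (0.4405%) had r over 0.9, and the median r was -0.14. The 5 most opposed were Mal2 (-0.93), Homer2 (-0.93), Fam20a (-0.93), Paqr8 (-0.91) and Ankk1 (-0.91). These are descriptions over arrays that share genotype, treatment and range differences.

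Stat5a, a transcription factor of cytokine signalling, followed Aire within groups as well. WT DMSO arrays read 11.08, 11.08 and 11.19 for Stat5a and KO DMSO arrays 11.43, 11.44 and 11.56, and the lowest readings were 10.49 on WT EtopoTopo 2 and 10.55 on KO EtopoTopo 1, which were also the lowest for Aire. After each group's mean was taken out, r was 0.98, the highest of the ranked genes, where 96 genes (0.4861%) had r over 0.9. By the same measure the range of the array had r = 0.95 with Aire in KO and 0.56 in WT. How far the within-group r rests on the narrow arrays was not tested. With group means kept, r was 0.97 within WT, 0.96 within KO and 0.96 without the 4 narrow arrays. After quantile normalization Stat5a again had the highest r, at 0.96. In the within-group ranking Khsrp, an RNA-binding protein, came second (0.96). With group means kept, its r was -0.01 without the 4 narrow arrays.

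Of the 10 genes most like Aire, 6 were again among the first 10 after quantile normalization, where Tnfrsf11a had r = 0.76. Only 1 was among the first 10 within WT and 0 within KO, though the 10 kept r of 0.80 to 0.97 in WT and 0.92 to 0.97 in KO. Within KO, 3.7517% of all genes had r over 0.9, against 0.1721% within WT.

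**Figure D5:**
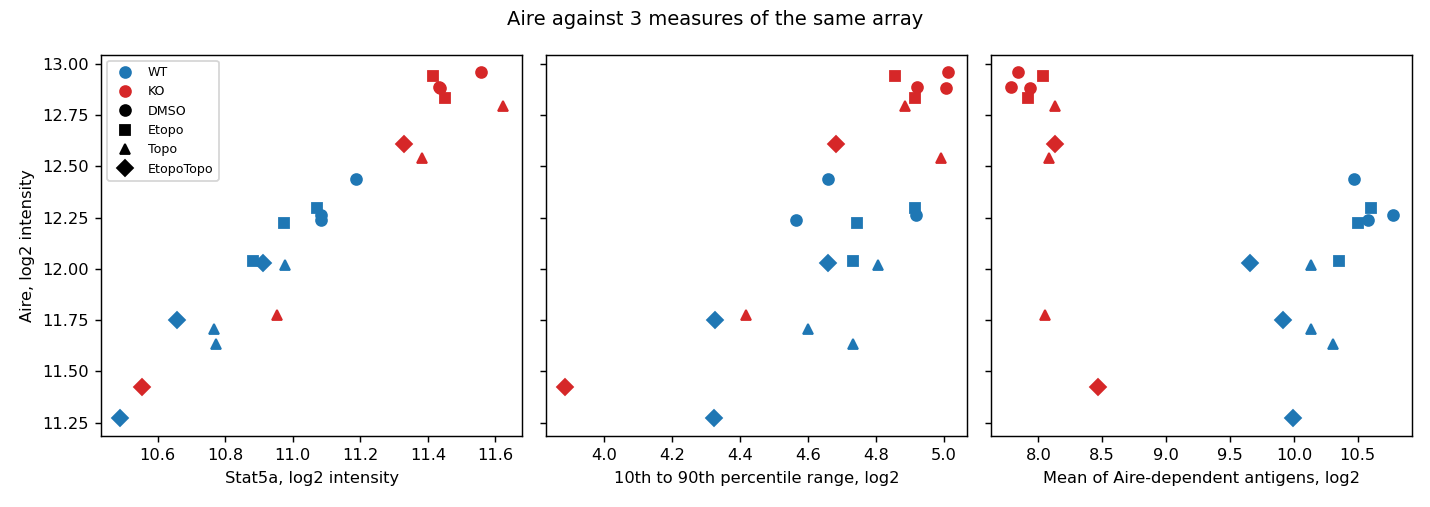
Aire log2 intensity (vertical axis) on each of the 22 arrays against Stat5a (left), the range between the 10th and 90th percentile of the array (middle) and the mean of 27 Aire-dependent antigens (right), WT in blue and KO in red, with a symbol per treatment. Aire rises with Stat5a over all arrays (r = 0.97), and the genotypes stand apart only in the antigen panel.

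Between genotypes, the antigens that Aire is known to induce ran the other way from its transcript. Their list was chosen with earlier results of these data known, so its counts describe these arrays and are no independent support. Of 27 measured, 24 were lower and 1 (Csn2, 0.29 ± 0.06, adjusted p = 0.000375) was higher in KO, against 19.8% and 16.1% of all genes. The median was -2.15 against 0.01 over all genes, so the probe's higher reading in KO arrays went together with lower targets. The list mean was 9.66 to 10.78 in WT and 7.78 to 8.46 in KO, with no overlap. Mucl2 (-5.95 ± 0.11) and Ly6g (-5.29 ± 0.09) were the lowest in KO. Averaged over genotypes, 8 were lower and 2 higher with Topo, against 11.7% and 9.36% of all genes, but this average joins opposite directions. With EtopoTopo against DMSO, 14 of the 27 were lower and 0 higher in WT (median -0.87), where 7.28% of all genes were lower and 3.6% higher. In KO 10 were higher and 0 lower (median 0.39), where 11.1% were higher and 11.7% lower. The list mean went from 10.47 to 10.78 in WT DMSO to 9.66 to 9.99 in WT EtopoTopo, and from 7.78 to 7.93 in KO DMSO to 8.13 to 8.46 in KO EtopoTopo, with no overlap in either genotype. The effect in KO minus that in WT was higher for 14 of 27 and lower for 0 (limma, median 0.99), where 2.35% of all genes were higher and 0.106% lower. With age in the fit the KO count was 0, though the KO median was larger, at 0.64. Age and treatment cannot be told apart within KO, so that count does not show that age accounts for the rise. The KO median was 0.26 without KO EtopoTopo 1, which left 1 array in that group. Grouping WT EtopoTopo 1 and 2 as WT Etopo left 1 array in WT EtopoTopo. The WT median was then -0.66 and the interaction median 1.02, while calls over all genes fell with those of the antigens. Within WT, the list mean and Aire had r = 0.61 (permutation p = 0.0341, adjusted 0.0462) and rho = 0.75 (p = 0.00697, adjusted 0.042), with r = 0.80 without the 2 arrays farthest from the median. After group means were taken out r was -0.52, opposite in sign. Within KO, r was -0.76 (p = 0.0108, adjusted 0.0432) and rho -0.78 (p = 0.0108, adjusted 0.042), and r was -0.38 without the 2 farthest arrays, on which it rests.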

How the data were processed

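RNA of sorted thymic MECs was hybridised to 22 Affymetrix gene arrays (1 colour), grouped by the genotype and treatment in the sample titles. The authors deposited 1 linear intensity per probe and array. Per the submitters' processing notes the tools were Affymetrix Power Tools and RMA, with versions and settings not given in the sources used here. The deposited arrays still differed in range, with median intensity from 236.15 to 263.57.

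Log2 was taken with no pseudocount (the planned test allowed for either scale). Of 24922 probes, 21425 had 1 gene symbol, 1399 several and 2098 none in the annotation given. The probe with the highest mean represented each of 19752 genes. limma 3.58.1 in R 4.3.3 fitted 1 mean per group over all 22 arrays (14 residual and 7.22 prior degrees of freedom), with Benjamini-Hochberg adjustment over all genes and a threshold of 0.05. Every adjusted p of a gene difference is from this fit. Exact permutation tests and correlations (100000 permutations) used scipy 1.17.1. The fit was tested on simulated data. The number of arrays limits the precision, and replicates had r of 0.9609 to 0.9971.

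Members and gene lists were chosen with earlier results of these data known. Named were Aire, its neighbours, the list of genes upstream, the 10 most and 5 least similar genes, the 5 most similar within groups, and the 4 largest differences of other lists. Csn2, Top1, Top2b and the further members named from short counts were chosen after their values were seen. Alternatives covered normalization, age, replicate number, array weights, the arrays of conflicting label, probe filters and leaving out arrays. Leaving out arrays by range, thymocyte genes or male label was chosen after seeing the data.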

Additional observations from a re-analysis of the deposited data

Results flagged for a closer look

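The effect of EtopoTopo on the Aire-dependent antigens differed between genotypes by the interaction test (limma): the effect in KO minus that in WT was higher for 14 of 27 antigens at an adjusted p under 0.05 and lower for 0, with a median log2 difference of 0.99. Of all genes, 2.35% were higher and 0.106% lower in this comparison. The antigen list was chosen with earlier results of these data known, so the count is a description. Over the alternative settings the count ran from 1 to 16 and the median from 0.88 to 1.11. The lowest count came from grouping WT EtopoTopo 1 and 2 by their treatment label. That left 1 array in WT EtopoTopo, and the median was 1.02. Calls over all genes fell there as well.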

How the results depend on the processing

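The averaged KO minus WT difference in Aire was called in all 22 fits that left out 1 array (0.41 to 0.70) and in all 12 other alternatives (0.50 to 0.69). The averaged Topo difference was called in all 22 (-0.76 to -0.46) and in 11 of 12 others, the exception being WT EtopoTopo 1 and 2 grouped as WT Etopo (-0.54). The averaged Etopo difference was -0.30 to -0.00 with 1 array left out, 0.076 after scale normalization and 0.0078 without the 4 narrow arrays, and was called in none. Where a value changed its call or sign, the cause was not tested.

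Single comparisons depended more on the setting. KO minus WT passed the threshold under DMSO after quantile normalization (0.59), with array weights (0.51), without the narrow arrays (0.60) and with only the groups compared (0.60). Under Etopo it passed after scale normalization (0.70), with weights (0.69), with the conflicting arrays as Etopo (0.91), without the narrow arrays (0.70) and with only the groups compared (0.70). Under Topo it passed after quantile normalization (0.59), with weights (0.89) and without the narrow arrays (0.88), and under EtopoTopo after scale normalization (0.60). Topo in WT passed with weights (-0.60) and without the narrow arrays (-0.53), and EtopoTopo in WT with weights (-0.79) and with only the groups compared (-0.63). Etopo in KO changed sign after scale normalization (0.25) and with the replicate block (0.0175). EtopoTopo in KO was not called after quantile normalization (-0.63), with age (-0.88), with weights (-0.91), without the narrow arrays (-0.30), without the arrays high in thymocyte genes (-0.90) or with only the groups compared (-0.89), and was 0.011 after scale normalization. The Topo interaction changed sign after quantile (0.0057) and scale normalization (0.33), with weights (0.38) and without the narrow arrays (0.28), and the EtopoTopo interaction after scale normalization (0.42). With 1 array left out, KO minus WT was 0.56 to 0.66 under DMSO, 0.63 to 0.76 under Etopo, 0.37 to 0.88 under Topo and -0.26 to 0.92 under EtopoTopo. Etopo in KO was -0.0797 to 0.032, EtopoTopo in KO -1.48 to -0.30, the Topo interaction -0.23 to 0.28 and the EtopoTopo interaction -0.85 to 0.33. The array weights did not converge fully, so values with them are approximate. Where leaving out an array left 1 in a group, that array was assumed to vary like the others.

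Upstream genes higher with Topo numbered 1 after scale normalization, and those lower 3 with age and 2 with the conflicting arrays as Etopo (4 to 11 with 1 array left out). Those lower with Etopo numbered 2 with weights (0 to 6). Neighbours higher with Topo numbered 2 after quantile and 1 after scale normalization (0 to 2), and those lower 2 after scale normalization. Neighbours lower with Etopo numbered 2 with weights (0 to 2). Relations of Aire with list means lost their call after quantile normalization (mature MEC 0.44 in WT and 0.28 in KO, antigens 0.48 and -0.71). After scale normalization they were 0.40 and -0.31 for mature MEC, -0.19 for thymocyte genes in KO, and 0.48 and -0.15 for antigens. Over all genes, calls ranged from 655 to 7832 for the Topo average (4162 in the main setting), 0 to 3284 for Etopo (62), and 0 to 9170 for EtopoTopo in KO (4513).

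Correlations of deviations between arrays of the same replicate number had a median of -0.046 (71 pairs, -0.558 to 0.592). For different numbers the median was 0.001 (140 pairs, -0.501 to 0.564). A median over all pairs cannot show whether arrays of some groups were paired by number. With the replicate block, the averaged differences were 0.57 for KO minus WT and -0.61 for Topo, with 6824 and 3851 genes called in place of 7094 and 4162.

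For the antigens with EtopoTopo, the number lower in WT was 0 to 17, the number higher in KO 0 to 13 and the number with a higher effect in KO 1 to 16 over settings added after seeing the data.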

Other observations

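Other marker lists were counted in the same averaged comparisons, in which 16.1% of all genes were higher and 19.8% lower in KO, and 9.36% higher and 11.7% lower with Topo, so counts of 1 or 2 of 8 are near the background. Of 7 genes of cornified cells, 6 were lower in KO and 1 was higher with Topo. Of 8 cortical epithelial genes, 2 were higher and 2 lower in KO, and 2 were lower with Topo. Of 10 thymocyte genes, 1 was higher in KO and 2 lower with Topo, and their mean had r = 0.43 with Aire in WT (permutation p = 0.152) and r = 0.01 in KO (p = 0.98), with 0.40 and -0.74 without the 2 arrays farthest from the median. Of 8 tuft genes, 1 was higher and 3 were lower in KO. Of 4 B cell genes, 1 was higher and 1 lower in KO, with 0 called for Topo. Of 8 macrophage and dendritic genes, 2 were higher and 3 lower in KO, and 1 was higher and 3 lower with Topo. Of 6 stromal genes, 1 was higher and 2 lower in KO.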
